A study of Mus musculus with 12 samples.

Results

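Heme synthesis enzymes turn glycine and succinyl-CoA into heme, the iron porphyrin of hemoglobin, cytochromes and catalase. The members were chosen by gene symbol alone: Alas1, Alas2, Alad, Uros, Urod, Cpox, Ppox and Fech, which are 8 of the 55450 genes in the count table. They were measured by sequencing of ribosomal-RNA-depleted total RNA in 12 libraries of donor-derived mouse bone marrow cells that lacked lineage markers and carried the stem cell factor receptor Kit. This Lin- Kit+ population holds stem cells and the progenitors of the myeloid, megakaryocytic and erythroid lines. The cells were sorted from recipients of competitive transplants, so every group, WT included, had passed through transplantation beside competitor marrow.

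There were 4 genotype labels with 3 libraries each. WT stands for wild type and Tet2KO for a knockout of Tet2, a DNA dioxygenase whose loss expands blood stem cell clones. Id1KO stands for a knockout of Id1, an inhibitor of basic helix-loop-helix transcription factors. The fourth, Tet2 KO + Id1KO in the labels, is called dKO here. Strain, age, sex, the alleles and the time after transplantation are not given in the sources used here. The titles give the 3 libraries of a genotype 1 common sample number, and nothing says that they came from separate mice, so the p-values measure the spread between these libraries, which may be technical.

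The pathway starts in mitochondria, where 5-aminolevulinate synthase makes aminolevulinic acid in the step that sets the rate. Alas1 is the form of that enzyme found in all tissues, held back by heme itself, and Alas2 is the form of maturing red cells. In the cytosol Alad joins aminolevulinic acid into porphobilinogen, Uros closes the ring to give uroporphyrinogen, and Urod removes carboxyl groups to give coproporphyrinogen. Back in mitochondria Cpox and Ppox oxidise it to protoporphyrin, and Fech inserts iron. The step between Alad and Uros is not among the members. Erythroid progenitors raise this pathway under control of the transcription factor GATA1 as they prepare to make hemoglobin.

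Library totals ran from 15706407 to 19959183 estimated counts. Levels are given as CPM, library-scaled counts after TMM normalisation. Tet2 counts were no lower where Tet2 is labelled null, at 97.6 to 101.8 CPM in WT against 127 to 132 in Tet2KO, and at 90.3 to 93.3 CPM in Id1KO against 115 to 121 in dKO. Id1 was not lower under its own null label either: its libraries lay between 1.24 and 1.76 CPM for WT, while Id1KO held 3.69 to 4.35, dKO 3.35 to 4.25 and Tet2KO 3.61 to 4.35. Counts over a whole gene do not show the loss of single exons in Tet2, which has 14 merged exons. Id1 has 1 merged exon, and why its counts were not lower was not tested. WT, Tet2KO, Id1KO and dKO are therefore used here as library labels, not as measured genotypes. Kit had means of 315 to 365 CPM in the 4 genotypes and the T cell marker Cd3e at most 0.0384 CPM. Xist averaged 262, 10.8, 64.9 and 16.7 CPM for WT, Tet2KO, Id1KO and dKO, and the Y-linked gene Ddx3y averaged 48.9, 87.7, 93.4 and 82.1 CPM. The balance of Xist and Ddx3y thus differed between the labels and cannot be told apart from genotype in the contrasts below. Its part in the values of the 8 enzyme genes was not tested.

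All 8 members passed the filter on low counts, but at very different levels. Per kb of merged exons, which can include rarely used ones, the level averaged over genotypes was highest for Alas1, at 75.2 CPM per kb. It was 31.9 CPM per kb for Alad, 25.6 for Urod, 12.4 for Cpox, 9.13 for Ppox, 4.64 for Uros and 4.21 for Fech. Within each genotype the mean per kb was higher for Alad than for Urod, and higher for Cpox than for Ppox. Uros was above Fech except in Tet2KO, at 3.45 against 3.50 CPM per kb, so Uros and Fech were not separated. Alas2 was last at 0.185 CPM per kb. Every library therefore held the ubiquitous form of the first enzyme at 7271 to 9855 counts, and the red cell form at 3 to 13. Alas1 supplied 58.7 ± 0.20% (SD, n = 3) of the summed CPM of the 8 genes in libraries labelled WT.

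Upstream sequence is shown for the 3 members with a GATA motif just before an annotated start, because 6 of the 8 members, Cpox and Uros among them, were lowest in every Tet2KO library and GATA1 is a known regulator of the pathway in red cell precursors. Alas2 did not share that pattern and is shown for its motif. The windows are the 250 bases before a start site in RefSeq (GRCm38.p6), which held entries for 7 of the 8 members and 10 start sites, and none for Fech. The motif searched was AGATAA or TGATAA on both strands, and capitals mark a match. Cpox is on chromosome 16, the start of Uros shown is the downstream one of its 2 on chromosome 7, and Alas2 is on chromosome X.

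Cpox, chr16:58669958-58670207, plus strand: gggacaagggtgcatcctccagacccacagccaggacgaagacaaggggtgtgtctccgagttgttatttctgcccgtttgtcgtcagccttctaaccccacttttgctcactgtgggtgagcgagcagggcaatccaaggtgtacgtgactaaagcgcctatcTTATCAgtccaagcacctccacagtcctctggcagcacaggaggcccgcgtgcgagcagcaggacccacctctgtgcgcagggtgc
Uros, chr7:133702501-133702750, minus strand: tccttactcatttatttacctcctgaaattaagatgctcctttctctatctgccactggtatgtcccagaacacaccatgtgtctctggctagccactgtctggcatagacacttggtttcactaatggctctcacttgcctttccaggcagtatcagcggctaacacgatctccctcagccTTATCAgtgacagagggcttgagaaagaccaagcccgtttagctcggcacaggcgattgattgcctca
Alas2, chrX:150547167-150547416, plus strand: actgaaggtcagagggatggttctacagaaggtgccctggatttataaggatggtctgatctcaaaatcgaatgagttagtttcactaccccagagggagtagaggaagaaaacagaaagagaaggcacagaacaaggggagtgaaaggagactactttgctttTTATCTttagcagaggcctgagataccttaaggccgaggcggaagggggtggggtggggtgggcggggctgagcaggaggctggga

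The match began 86 bases before the start in Cpox, 68 in Uros and 86 in Alas2. Of all 32851 windows of this length, 16.6% held a match, against 3 of the 10 windows of the members. The windows of Alas1, Alad, Urod and Ppox and the upstream start of Uros had none. CCNCNCCC, the motif of KLF-type factors, occurred in 6 of the 10 windows, those of Alas1, Alas2 and Alad and the upstream one of Uros, and in 45.9% of all windows. These matches are letters in a window, and binding was not measured.

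**Figure D1:**
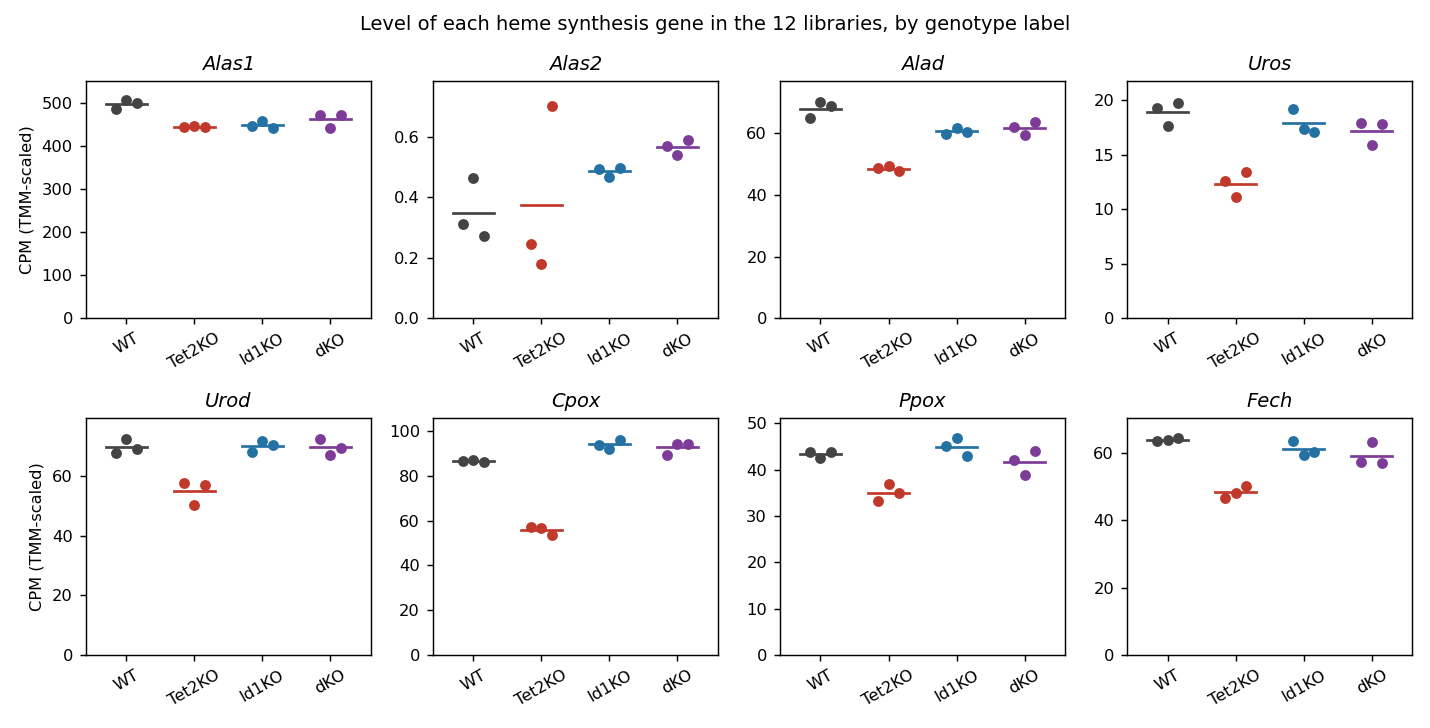
CPM after TMM scaling (y axis, from 0) of the 8 genes in each library (points), by genotype label (x axis), with bars at the means of 3 libraries. For Alad, Uros, Urod, Cpox, Ppox and Fech all 3 Tet2KO points lie below the 9 others, whereas Alas1 in Tet2KO lies beside Id1KO and Alas2 spreads widely.

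The first question was how the enzymes differed with the Tet2KO label while Id1 was intact. Of the 8 genes, 7 had lower levels under the Tet2KO label than under WT at an adjusted p under 0.05 (edgeR quasi-likelihood test, Benjamini-Hochberg over 14346 genes) and none was higher. Of all genes tested, 32.8% were called, 16.2% lower and 16.6% higher. Those were 2321 lower and 2378 higher genes, against 1374 lower and 3384 higher with library totals as the only scaling, which left the 7 members lower. The decrease was smallest for Alas1, 10.6%, and largest for Cpox, 35.6%. The median log2 fold change of the 8 genes was -0.37, beside 0.00 for all genes (-0.0028). In sorted bulk cells, fewer erythroid progenitors and less RNA per cell cannot be told apart.

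Cpox (ENSMUSG00000022742.6, chromosome 16, 58670292 to 58717636 on GRCm38) encodes coproporphyrinogen oxidase. It stood at 86.5, 87.1 and 86.1 CPM in libraries labelled WT and at 57.2, 56.5 and 53.7 CPM in Tet2KO. It stood at 94.1, 92.2 and 96.1 CPM in Id1KO and at 89.3, 94.4 and 94.5 CPM in dKO. The Tet2KO libraries were thus far below all others, and those with an Id1-null label were all above WT. The log2 fold change of Tet2KO against WT was -0.63 ± 0.04 (SE), with an edgeR adjusted p of 6.42e-11. Gpr15 overlaps 204 bp of its exons on the other strand and had 13 to 27 counts.

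Uros (ENSMUSG00000030979.13, chromosome 7, 133686243 to 133710072), the synthase that closes the ring, had the lowest CPM after Alas2, without regard to length. It was at 19.3, 17.6 and 19.7 CPM in WT and at 12.6, 11.1 and 13.4 CPM in Tet2KO. In Id1KO it was at 19.2, 17.4 and 17.1 CPM, and in dKO at 17.9, 15.9 and 17.8 CPM. Tet2KO was again apart from the other genotypes, which overlapped each other. Its log2 fold change of -0.61 ± 0.08 was as large as that of Cpox within their errors, with an edgeR adjusted p of 6.68e-06. The counts cover the gene as a whole and do not separate transcripts from its upstream and downstream starts.

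Alad (ENSMUSG00000028393.10, chromosome 4, 62509169 to 62519918), the lead-sensitive dehydratase, followed. Its values were 65.0, 70.2 and 68.9 CPM in WT and 48.8, 49.3 and 47.7 CPM in Tet2KO. They were 59.7, 61.9 and 60.5 CPM in Id1KO and 62.2, 59.4 and 63.6 CPM in dKO. Unlike Cpox, Alad was lower than in WT in all 3 null genotypes, lowest in Tet2KO. The log2 fold change was -0.49 ± 0.04 in Tet2KO against WT (edgeR adjusted p 1.87e-08).

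Fech (ENSMUSG00000024588.9), the ferrochelatase that ends the pathway, was at 63.6, 63.9 and 64.5 CPM in WT and at 46.8, 48.1 and 50.4 CPM in Tet2KO. It was at 63.6, 59.4 and 60.5 CPM in Id1KO and at 57.4, 63.3 and 57.1 CPM in dKO, so Id1KO overlapped WT while dKO lay between Tet2KO and WT. Its log2 fold change in Tet2KO against WT was -0.40 ± 0.04 (edgeR adjusted p 9.53e-07). Urod (ENSMUSG00000028684.14, chromosome 4, 116989965 to 116994413), the decarboxylase, ranged from 67.8 to 72.7 CPM in WT and from 50.5 to 57.8 CPM in Tet2KO. Its ranges of 68.1 to 71.8 CPM in Id1KO and 67.4 to 72.6 CPM in dKO overlapped WT. The log2 fold change against WT in Tet2KO was -0.34 ± 0.05 (adjusted p 1.37e-05).

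Ppox (ENSMUSG00000062729.11, chromosome 1, 171275990 to 171281186), the oxidase before Fech, ranged from 42.6 to 43.8 CPM in WT and from 33.2 to 36.8 CPM in Tet2KO. Its libraries labelled Id1KO, at 42.9 to 46.7 CPM, and dKO, at 38.8 to 44.0 CPM, overlapped WT. Its log2 fold change of -0.31 ± 0.05 in Tet2KO against WT (edgeR adjusted p 0.000147) was the smallest of the 6 enzymes after the first step. B4galt3, on the other strand, overlaps 791 bp or 17.5% of its exons at 354 to 483 counts. How the counting treated strand is not given in the sources used here, and the part of B4galt3 reads in the Ppox values was not tested. For these 6 enzymes, Alad to Fech, all 3 Tet2KO libraries lay below all 9 others, a pattern that 10.6% of the genes tested showed. Together they summed to 255 ± 2.6 CPM in Tet2KO libraries (mean ± SD, n = 3 for each label), 351 ± 4.3 for WT, 349 ± 1.1 for Id1KO and 342 ± 3.8 for dKO.

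The first step behaved differently from the rest. Alas1 (ENSMUSG00000032786.16, chromosome 9, 106233455 to 106248654) was at 488, 508 and 502 CPM in WT and at 446, 448 and 445 CPM in Tet2KO. It was at 446, 458 and 443 CPM in Id1KO and at 473, 443 and 472 CPM in dKO. WT was thus above the other genotypes, which overlapped each other, and 1 dKO library was as low as Id1KO. The log2 fold change was -0.16 ± 0.03 in Tet2KO against WT (edgeR adjusted p 0.000196) and -0.15 ± 0.03 in Id1KO against WT (adjusted p 0.00103).

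The later enzymes were also lower in Tet2KO relative to Alas1. For each CPM of Alas1 there was 0.125 ± 0.0040 CPM of Cpox in Tet2KO libraries (mean ± SD, n = 3 for each label), 0.173 ± 0.0033 for WT, 0.210 ± 0.0079 for Id1KO and 0.201 ± 0.012 for dKO. For Alad the same ratio was 0.109 ± 0.0016 in Tet2KO, and it lay at 0.136 ± 0.0026 for WT, 0.135 ± 0.0014 for Id1KO and 0.133 ± 0.0017 for dKO. Each of the 6 ratios was lower in every Tet2KO library than in every library of the other genotypes. The share of Alas1 in the summed CPM of the 8 genes was accordingly 63.3% to 64.0% in Tet2KO libraries and 56.0% to 58.9% in the others. The gap was narrow for Ppox, with at most 0.0822 in Tet2KO and at least 0.0838 in WT. In CPM these 6 genes were already lowest in every Tet2KO library, as were 10.6% of the genes tested. How many of all genes had this pattern relative to Alas1 was not counted. The ratios are given as a description and were not tested.

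**Figure D2:**
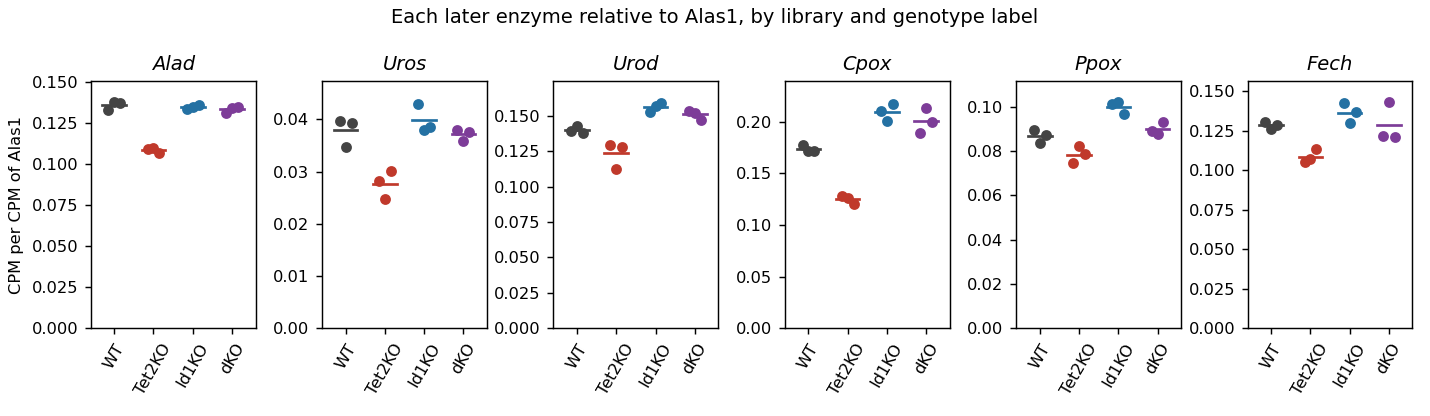
CPM of each of the 6 later enzymes divided by the CPM of Alas1 in the same library (y axis, from 0), by genotype label (x axis), with bars at the means of 3 libraries. All 3 Tet2KO points are the lowest in each panel, and the Id1KO mean is the highest for each enzyme but Alad.

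Alas2 (ENSMUSG00000025270.13, chromosome X, 150547375 to 150570638) had too few counts to resolve a difference. It had 6, 9 and 5 counts in libraries labelled WT and 4, 3 and 13 in Tet2KO. It had 9 counts in each Id1KO library and 9, 9 and 10 in dKO. The 3 Tet2KO libraries held both the lowest and the highest value. The log2 fold change of Tet2KO against WT was 0.14 with a 95% interval from -0.85 to 1.13 (edgeR adjusted p 0.856), so a difference of the size seen in Cpox lies inside the interval. Without Tet2KO replicate 3, the library of 13 counts, it was -0.70. Apex2 covers 311 bp or 12.9% of its exons on the other strand at 217 to 310 counts, and the part of its reads in the Alas2 counts was not tested. Alas2 is X-linked and Xist differed between the genotypes, as given above, and the part of that in its counts was not tested either.

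The second question was whether the Tet2 label went with the same difference when Id1 was also labelled null. In dKO against Id1KO, a comparison that shares no library with Tet2KO against WT, none of the 8 genes was called by edgeR or DESeq2, against 19.3% of all genes by edgeR, 10.6% higher and 8.7% lower. At an unadjusted p under 0.05 there was 1, Ppox, with a log2 fold change of -0.11 (95% interval -0.22 to -0.0027). The log2 fold change of Cpox was -0.02 (-0.090 to 0.050), that of Alad 0.03 (-0.058 to 0.11) and that of Fech -0.05 (-0.14 to 0.047). For Uros it was -0.06 (-0.22 to 0.10), for Urod -0.01 (-0.10 to 0.089) and for Alas1 0.04 (-0.018 to 0.10). These intervals leave out the decreases estimated with Id1 intact for these 7 genes. For Ppox, however, the interval with Id1 intact, -0.42 to -0.20, overlapped the one given here. Alas2, at 0.22 (-0.65 to 1.09), was not resolved.

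**Figure D3:**
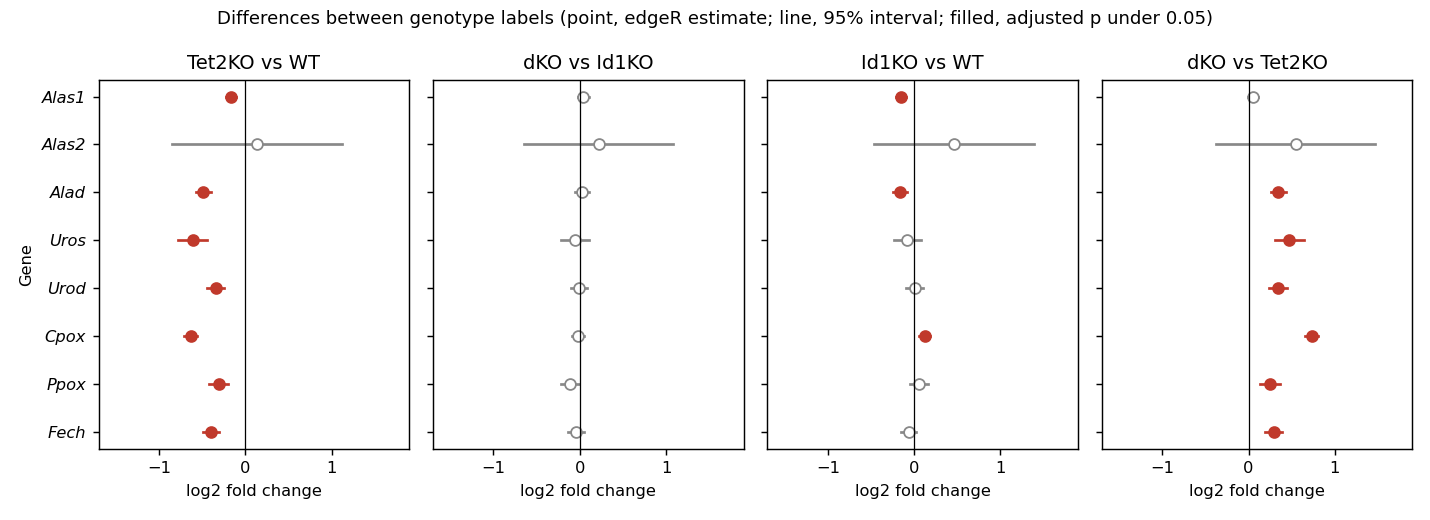
Log2 fold change (x axis) of each gene (y axis) between genotype labels, with 95% intervals as lines and filled points at an edgeR adjusted p under 0.05. The panel of Tet2KO against WT has 7 filled points left of 0, that of dKO against Id1KO has none, and that of dKO against Tet2KO has 6 right of 0.

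Tested directly as an interaction, the difference between these 2 contrasts passed for 6 of the 8 genes, all positive. Of all genes, 14.5% were called, 7.46% positive and 7.03% negative, or 1070 and 1008 genes, against 654 and 1681 with library totals alone. The interaction is the log2 fold change of dKO against Id1KO minus that of Tet2KO against WT. It was largest for Cpox, at 0.61 ± 0.05 (SE, edgeR adjusted p 3.42e-08), Uros, at 0.55 ± 0.11 (0.00208), and Alad, at 0.51 ± 0.06 (3.46e-06). Fech, Urod and Alas1 had 0.36 ± 0.06, 0.34 ± 0.07 and 0.20 ± 0.04, with adjusted p of 0.000709, 0.00191 and 0.00191. Ppox had 0.20 ± 0.07 with an adjusted p of 0.0821, which became 0.0301 without dKO replicate 2. Alas2 had 0.08 with an adjusted p of 0.952.

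The comparison of dKO with Tet2KO asks what a null Id1 label adds on the Tet2KO background. The 6 enzymes after the first step, Ppox among them, were called higher in dKO, and no member was called lower. Alas1, which passed the interaction test, was not called here. Of all genes, 26.4% were called, 13.1% higher and 13.4% lower. This contrast uses the Tet2KO libraries that also enter Tet2KO against WT, so the values of both are given side by side. Cpox rose by 0.73 ± 0.04 on the log2 scale (edgeR adjusted p 8.58e-12) after its -0.63 in Tet2KO against WT. Uros rose by 0.47 ± 0.08, Alad by 0.35 ± 0.04, Urod by 0.34 ± 0.05, Fech by 0.29 ± 0.05 and Ppox by 0.25 ± 0.05, with adjusted p of at most 0.00186. Alas1 had 0.05 (95% interval -0.0076 to 0.11, adjusted p 0.195), and became a call, at 0.08 with an adjusted p of 0.033, without dKO replicate 2.

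Against WT, the Id1-null labels went with small differences in both directions. In Id1KO, 2 genes were called lower and 1 higher, where 15% of all genes were called, 7.77% lower and 7.26% higher (1114 and 1042 genes, against 625 and 2117 with library totals alone). Alad was lower by 10.8% (log2 fold change -0.16, edgeR adjusted p 0.00639), Alas1 by 9.99%, and Cpox was higher by 8.68% (0.12, adjusted p 0.0178). In dKO the same 3 genes were called in the same directions, beside 19.2% of all genes, 8.97% lower and 10.2% higher (1287 and 1467 genes, against 768 and 2589 with library totals alone). Alas1 was at -0.11 (adjusted p 0.00989), Alad at -0.14 (0.0162) and Cpox at 0.10 (0.0425). No gene was called in dKO without WT replicate 2, and 1 was called without WT replicate 3. Without dKO replicate 2 the calls of Alas1, Alad and Cpox were all lost, and the 1 gene called was Fech. The call of Cpox in Id1KO was lost without WT replicate 3 or Id1KO replicate 3.

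The other genes that handle heme and iron were taken from lists of known function. Of 14 genes for transport of porphyrins, heme and iron into mitochondria and for assembly there, 10 were lower and 1 higher in Tet2KO than in WT, with a median log2 fold change of -0.19. Tspo2, an erythroid porphyrin carrier, had the largest decrease, from 22.6 to 10.5 CPM in the means (-1.11, edgeR adjusted p 1.58e-09). Abcb6, a porphyrin transporter, had -0.60, and Slc25a38, which brings glycine into mitochondria for the first step, had -0.41. Slc25a37, the mitochondrial iron importer mitoferrin, was the one that rose, by 0.12. That call was lost by DESeq2, at a threshold of 0.01, and without WT replicate 2, Tet2KO replicate 1 or Tet2KO replicate 2. In dKO against Tet2KO 5 of the 14 were higher and none lower, and in dKO against Id1KO 1 was higher and 4 lower.

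Of 11 genes for iron uptake, storage and sensing, 7 were lower in Tet2KO than in WT and 1 higher, with a median of -0.16 (5 lower and 3 higher with library totals as the only scaling). The transferrin receptor Tfrc averaged 232 CPM in Tet2KO libraries and 288, 387 and 342 CPM for WT, Id1KO and dKO. The endosomal iron transporter Slc11a2 averaged 34.8 CPM in Tet2KO and 49.6, 52.3 and 49.9 CPM for the others in that order. Ireb2, an iron-sensing regulator of mRNAs, was the member that rose, by 0.25. In dKO against Tet2KO 7 of the 11 were higher and none lower, and in dKO against Id1KO 4 were higher and 3 lower. For heme export and breakdown, 2 of 7 genes tested were lower in Tet2KO than in WT, the biliverdin reductase Blvrb (-0.75, edgeR adjusted p 1.20e-09) and the exporter Abcg2 (-0.26, adjusted p 0.000293). Hmox1, which degrades heme, was at 0.02 (adjusted p 0.95). None of the 4 heme sensors, Bach1 and the kinase Eif2ak1 among them, was called in Tet2KO against WT by edgeR, at an unadjusted p under 0.05 or by DESeq2.

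**Figure D4:**
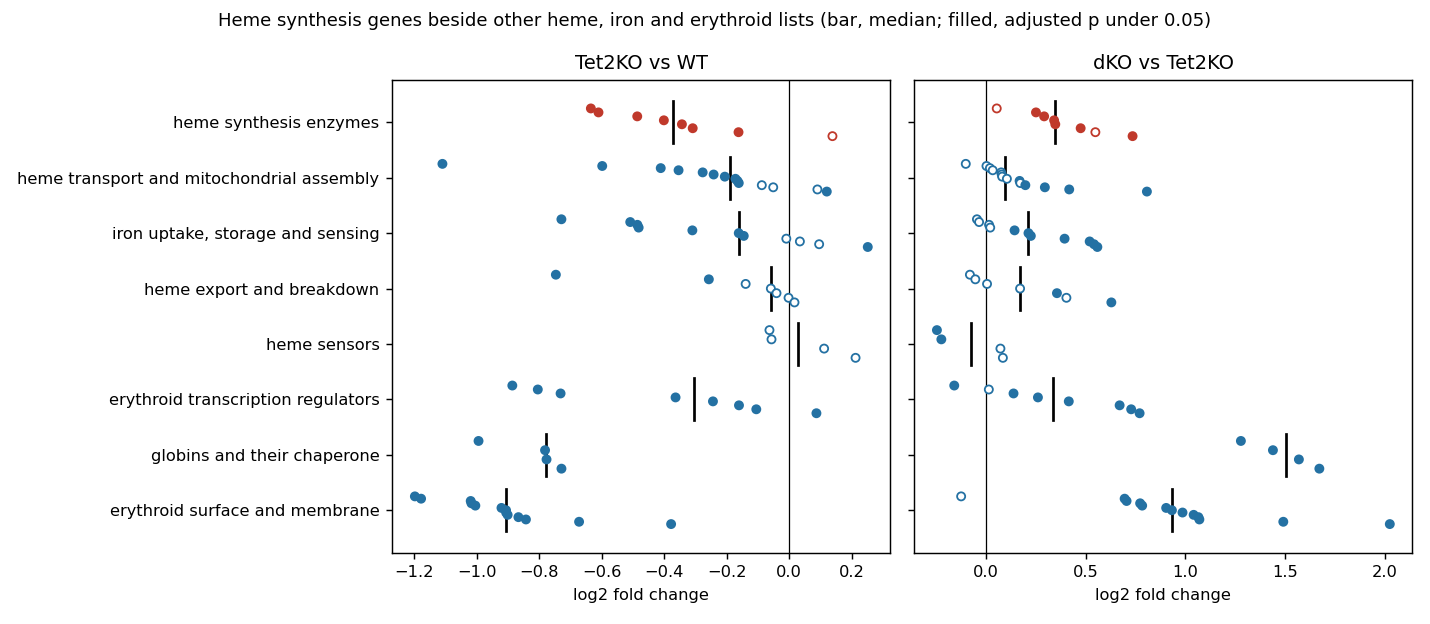
Log2 fold change (x axis) of each gene tested (points) in the heme synthesis list and 7 other lists (y axis), for Tet2KO against WT and dKO against Tet2KO, with bars at list medians and filled points at an edgeR adjusted p under 0.05. In Tet2KO against WT the median is -0.37 for heme synthesis, -0.19 for heme transport and -0.91 for erythroid surface genes.

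Erythroid genes also differed between Tet2KO and WT. Of 8 erythroid transcription regulators, 7 were lower and 1 higher in Tet2KO than in WT, with a median of -0.30. The one higher call was lost by DESeq2, with no filter, at a threshold of 0.01, and without any 1 of the WT libraries or Tet2KO replicate 1 or 3. Gata1 averaged 31.0 CPM in Tet2KO libraries and 51.6, 53.2 and 49.4 CPM for WT, Id1KO and dKO. Klf1, the erythroid KLF factor, averaged 40.7 CPM in Tet2KO and 71.0, 72.1 and 67.4 CPM for the others in that order. All 13 erythroid surface and membrane genes were lower in Tet2KO than in WT, with a median of -0.91, and 12 of them were higher in dKO than in Tet2KO. Their summed level ranged from 895 to 902 CPM in Tet2KO libraries, 1592 to 1634 for WT, 1701 to 1727 for Id1KO and 1539 to 1555 for dKO. Per 100 CPM of these surface genes, the 6 enzymes after the first step came to 28.4 ± 0.15 CPM in Tet2KO libraries (mean ± SD, n = 3 for each label). The ratio was 21.8 ± 0.16 for WT, 20.4 ± 0.12 for Id1KO and 22.1 ± 0.21 for dKO, so the enzymes were less reduced in Tet2KO than the surface genes. The 4 globin genes with a row were lower in Tet2KO than in WT, with a median of -0.78, and all 4 were higher in dKO than in WT, with a median of 0.64. Their summed level was at most 51.6 CPM in any library, and near-identical globin copies make the counts of single genes uncertain. In dKO against Id1KO, where none of the 8 enzyme genes was called, all 4 globin genes were higher. Of the 13 surface genes 2 were higher and 4 lower there, and of the 8 regulators 2 were lower and none higher. Over all genes in that contrast, 10.6% were called higher and 8.7% lower.

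Markers of other cell types also differed between labels, in patterns of their own. Summed neutrophil granule genes (7 of 7 with a row) ranged from 15470 to 15707 CPM in Tet2KO libraries, 14018 to 14073 for WT, 11764 to 12744 for Id1KO and 11558 to 12752 for dKO. Mpo made up most of that sum, with 11141 CPM on average in Tet2KO, and of the 7 genes 3 were called higher and 2 lower in Tet2KO than in WT, the latter being the late granule genes Camp (-0.92) and Ngp (-0.49). Monocyte and dendritic genes (6 of 6) ranged from 1958 to 2010, 1732 to 1790, 1551 to 1561 and 1887 to 1911 CPM in the same order. The 5 lymphoid markers summed to at most 46.4 CPM, the highest in Tet2KO. The 6 megakaryocyte markers were highest in Id1KO, at 222 to 236 CPM, with 157 to 163 for WT, 162 to 173 for Tet2KO and 163 to 180 for dKO. The 5 mast cell and basophil markers summed to 137 to 161 CPM, and in Tet2KO against WT 3 were called higher (Fcer1a by 0.48) and 1 lower (Ms4a2, -0.40). The part of these shares of cells in the enzyme values was not tested.

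The genes whose genotype pattern lay nearest to that of Alas1, by distance between the 4 centred genotype means of log2 CPM over 9787 genes, were Zcchc17, Agap1, Sec24d, Ntmt1 and Dtd2, at distances of 0.012 to 0.016. The pattern shared is a level in WT above the 3 other genotypes. Zcchc17, for example, averaged 41.6 CPM for WT and 37.5, 37.6 and 38.4 CPM for Tet2KO, Id1KO and dKO. No gene lay near Alas2 on that scale. The closest were Tpt1-ps3, Bex4, Eif2s3y, Banp and Adam1a, at 0.26 to 0.29.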

How the data were processed

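RNA of 12 libraries in 4 genotypes (3 each) was analysed. The authors deposited 1 table of estimated counts per gene, not normalized, in which 8.25% of genes had a value that was not whole. STAR, RSEM and mm10 are named, without versions, per the submitters' processing notes, and the strand setting is not given in the sources used here. All 55450 identifiers matched GENCODE M21 (GRCm38), which gave positions and exons.

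Counts were rounded, filtered with edgeR's filterByExpr (minimum count 10, 14346 genes kept), scaled by TMM and fitted with 1 mean per genotype over all 12 libraries. The 6 contrasts were tested by two-sided quasi-likelihood F-tests with Benjamini-Hochberg adjustment over all genes tested and a threshold of 0.05, and intervals are 95%. The members and lists were chosen with earlier results of these data known. All 8 members are named, with the 5 genes closest in pattern to Alas1 and to Alas2 (mean of at least 5 CPM, no gene models; a level above 0 in every library was added after the data were seen). Other list genes are named as examples, which were chosen after their values were seen. Of the list symbols, Ahsp and Ly76 matched no row and are not analysed here.

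All 12 pairs of libraries within a genotype differed by more than sampling noise (chi-square, genes with 20 or more summed over both libraries). Their median chi-square per gene was 1.18 to 2.10 times that of sampling alone, against 2.89 to 5.94 times for pairs between genotypes. The libraries were kept apart. Over so many genes this test also rejects for small technical differences, so it does not show that the libraries came from separate mice. Similar exonic sequence was sought with blast 2.17.0 (95% identity, at least 100 bp): outside the overlapping genes given with the results, Cpox and Fech shared stretches of at most 200 and 478 bp with other genes. In simulated counts for Tet2KO against WT over 14167 genes, edgeR recovered 90.5% of 200 genes changed 2-fold, with 7 false calls. Over 14169 genes with 1.2-fold changes it recovered 50% with 4. The simulated counts had 1 spread for all genes, close to the common coefficient of variation of these libraries (0.0305). Only the 200 genes were changed, whereas 32.8% of genes were called in the real Tet2KO against WT. The simulation therefore does not give the rate of false calls in the real data. Alternatives were other scalings, DESeq2, filters, thresholds, the compared libraries alone, a replicate block and leaving out each library. Versions were R 4.3.3, edgeR 4.0.16, DESeq2 1.42.0, Python 3.11.15 and matplotlib 3.10.9.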

Additional observations from a re-analysis of the deposited data

Results flagged for a closer look

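The difference that went with the Tet2 label depended on the Id1 label for 6 enzymes, by the edgeR interaction test. The log2 interaction was 0.61 for Cpox, 0.55 for Uros, 0.51 for Alad, 0.36 for Fech, 0.34 for Urod and 0.20 for Alas1. All 6 enzymes were called lower in Tet2KO than in WT, and none of them was called lower in dKO than in Id1KO.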

How the results depend on the processing

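The 7 calls in Tet2KO against WT, the 6 in dKO against Tet2KO and the 6 interactions were called under every alternative run, with adjusted p of at most 0.00467 (Alas1, Tet2KO vs WT), 0.0186 (Ppox, dKO vs Tet2KO) and 0.0105 (Alas1, interaction). The small differences from WT were less stable. In dKO against WT, 3 members were called, but 1 with library totals as the only scaling, 1 by DESeq2, 1 at a threshold of 0.01 and 0 to 3 when 1 library was left out. In Id1KO against WT the call of Cpox was lost by DESeq2 (adjusted p 0.0643). Without dKO replicate 2, Fech became a call in dKO vs WT (-0.16, edgeR adjusted p 0.0161), and the calls of Alas1, Alad and Cpox were lost.

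Differences near 0 that were not called changed sign. On the log2 scale, the difference for Urod, Id1KO vs WT, was -0.0033 with no filter, and that for Urod, dKO vs WT, was 0.051 with library totals alone. With 1 library left out, Urod ran from -0.014 to 0.039 in Id1KO vs WT, from -0.028 to 0.030 in dKO vs WT and from -0.037 to 0.016 in dKO vs Id1KO. Cpox ran from -0.038 to 0.0059 in dKO vs Id1KO. Alas2 ran from -0.70 to 0.47 in Tet2KO vs WT and from -0.25 to 0.92 in the interaction, and its 3 to 13 counts per library limit any statement on it.

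Over all genes, DESeq2 called 1374 in Id1KO vs WT where edgeR called 2156, and 1286 interactions where edgeR called 2078. At a threshold of 0.01 edgeR called 3122 of 4699 in Tet2KO vs WT, 1085 of 2156 in Id1KO vs WT, 1557 of 2754 in dKO vs WT, 2285 of 3793 in dKO vs Tet2KO, 1599 of 2762 in dKO vs Id1KO and 972 of 2078 interactions. The genes nearest to Alas1 and Alas2 shared 0 of 5 with those chosen by Pearson correlation over the libraries. The highest r with Alas1 were those of Rmrp (0.96), Rn7s2 (0.94) and Rn7s1 (0.93), whose means were also highest in WT. Rn7s2 averaged 33789 CPM for WT and 15534, 18652 and 21312 CPM for Tet2KO, Id1KO and dKO. The part of such abundant RNAs in the Alas1 difference was not tested.

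Whether the library numbers in the titles pair the samples was not settled. Of 18 same-numbered pairs across genotypes, 8 had deviations correlated above 0.1 (median 0.062). Of 36 differently numbered pairs, 11 did (median -0.038). Of 12 libraries, 6 correlated best with their own number. The largest correlation, 0.59, was between Id1KO replicate 3 and dKO replicate 2. Effects shared by libraries of different genotypes were not tested beyond the replicate block. With the replicate block, 7 members were called in Tet2KO vs WT, 6 in dKO vs Tet2KO, 6 in the interaction, 3 in Id1KO vs WT, 0 in dKO vs Id1KO and 2 in dKO vs WT. The call lost was Cpox, dKO vs WT (adjusted p 0.0632). A fit to the compared libraries alone was not run for the interaction, which uses all 12.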
